A study of Mus musculus with 8 samples.

Results

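The genes described are 6 basic helix-loop-helix (bHLH) transcription factors Neurod1, Neurod2, Neurod6, Nhlh1, Nhlh2 and Bhlhe22. They were chosen by gene symbol, and all 6 were found among the 53507 gene rows of the count tables. The tables hold RNA sequencing counts from 8 libraries of tdTomato-positive mouse brain cells, whose labelled cell type is progenitor cells. The tdTomato protein fluoresces red and lets labelled cells be sorted. There are 4 groups of 2 libraries: embryonic day 13 (E13, labelled wt), embryonic day 15 (E15, labelled wt), postnatal day 12 (P12) after rearing in normal air, and P12 after a hypoxic chamber at 10% oxygen from P3 to P11, a span of 8 days. Mothers were exchanged between the hypoxic and the normoxic litters during the exposure, and each library was built from 400 pg of total RNA. The labels do not say which allele or driver gave the tdTomato signal, nor the mouse strain, nor whether animals were pooled. Nothing says that replicates came from separate animals either, so p-values measure only the spread between these libraries.

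As background, proneural bHLH factors such as Neurog2 start neuronal differentiation, and the NeuroD factors act after them in intermediate progenitors and newborn neurons of the cerebral cortex. These factors pair with broadly expressed E proteins and bind a short DNA motif, the E-box. Id proteins lack a DNA-binding region and hold E proteins in inactive pairs, while Hes and Hey repressors oppose the proneural genes. Neurod1 is made as cells leave the cycle, Neurod2 and Neurod6 in maturing excitatory neurons, Nhlh1 and Nhlh2 briefly in newborn neurons, and Bhlhe22 encodes a repressor that patterns cortical areas and works with Prdm8.

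Totals were 36252027 to 47084796 counts in gene rows. Genes with at least 10 counts numbered 17520 to 18318 in the embryonic libraries, 14129 and 16468 in normoxia and 12785 and 11695 in hypoxia. Levels are given as CPM, counts per mega-count of library size after TMM scaling, a method that equalises the bulk of genes between libraries. A count of 3, the limit that a count of 0 allows, equals 0.0482 to 0.111 CPM; such limits cover counting error only. The labelled cell type was checked against fixed markers. In the embryo the glutamatergic cortical neuron markers Slc17a7, Slc17a6, Tbr1 and Fezf2 all stood above 10 CPM. The 5 radial glia markers, which mark progenitors, summed to 180.5 to 280.3 CPM in the embryo and were uneven: Vim had 69.2 to 208 CPM, Fabp7 29.6 to 95.2, Nes 7.89 to 22.3, Sox2 4.21 to 11.8 and Hes1 0.643 to 3.42. The same 5 summed to 587 to 1047 CPM at P12. At P12 the 5 astrocyte markers summed to 3048 to 3866 CPM in each library, against 3.45 to 7.01 in the embryo.

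Each of the 6 genes carries its coding sequence in 1 exon (GENCODE M21 on GRCm38). Neurod1 lies on chromosome 2 (79452521 to 79456751, minus strand), Neurod2 on chromosome 11 (98325415 to 98329648, minus), Neurod6 on chromosome 6 (55677822 to 55681263, minus) and Nhlh1 on chromosome 1 (172052292 to 172057573, minus). Nhlh2 (102010076 to 102015492) and Bhlhe22 (18054174 to 18057517) both lie on the plus strand of chromosome 3. The coding parts of Nhlh1 and Nhlh2 are short, 399 and 405 bases, against 1011 to 1149 in the other 4. The first exon of Neurod1, 201 bases or 7.37% of its exonic length, is shared with Cerkl on the same strand, and 154 bases overlap a noncoding gene on the opposite strand. Cerkl had 55 to 130 counts in the embryonic libraries, 288 and 2 in normoxia and 0 and 2 in hypoxia, and how shared reads were assigned is not stated.

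The promoters of the 4 genes that were lowest at P12 are shown because these factors bind E-boxes and these 4 genes were called lower at P12 than in the embryo. The sequences come from RefSeq (GRCm38.p6), which matched 5 of the 6 genes. They run 5′ to 3′ on the gene's own strand and stop before the first annotated start of transcription, and capitals mark each E-box, CANNTG, where N is any base.
Neurod2, chr11:98329649-98329895, minus strand: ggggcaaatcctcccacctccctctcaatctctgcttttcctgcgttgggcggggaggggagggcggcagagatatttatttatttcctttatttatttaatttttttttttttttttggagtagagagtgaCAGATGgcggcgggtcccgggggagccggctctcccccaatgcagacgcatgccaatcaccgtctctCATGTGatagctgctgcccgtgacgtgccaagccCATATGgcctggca
Neurod6, chr6:55681264-55681513, minus strand: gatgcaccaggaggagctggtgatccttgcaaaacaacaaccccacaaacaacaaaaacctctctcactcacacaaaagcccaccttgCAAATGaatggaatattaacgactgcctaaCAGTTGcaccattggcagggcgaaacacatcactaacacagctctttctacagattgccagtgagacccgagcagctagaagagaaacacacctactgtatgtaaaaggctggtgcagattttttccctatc
Nhlh1, chr1:172057597-172057846, minus strand: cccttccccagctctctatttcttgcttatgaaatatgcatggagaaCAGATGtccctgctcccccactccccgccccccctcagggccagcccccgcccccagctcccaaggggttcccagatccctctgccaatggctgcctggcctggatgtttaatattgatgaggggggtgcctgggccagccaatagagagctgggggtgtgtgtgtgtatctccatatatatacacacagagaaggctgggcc
Nhlh2, chr3:102009895-102010075, plus strand: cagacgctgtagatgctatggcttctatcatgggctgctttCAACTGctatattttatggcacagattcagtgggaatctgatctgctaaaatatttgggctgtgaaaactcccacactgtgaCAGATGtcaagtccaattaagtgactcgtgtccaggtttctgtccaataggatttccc

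In the full window of 300 bases (250 before and 50 after the RefSeq start) E-boxes numbered 1 in Neurod1, 3 in Neurod2, 2 in Neurod6, 2 in Nhlh1 and 4 in Nhlh2. At least 1 E-box was present in 72.1% of 27025 promoter windows of the same length, with a mean of 1.39. The form CAGATG (reverse CATCTG), searched on both strands and a subset of CANNTG, occurred once each in Neurod2, Nhlh1 and Nhlh2 and in 17.2% of all windows. The form CAGCTG occurred in Nhlh2 and in 16.1% of all windows. The N-box CACNAG (reverse CTNGTG), a motif of Hes repressors, occurred once in Neurod1, 3 times in Neurod6 and once in Nhlh2, and in 42.6% of all windows. These matches describe the letters in the windows and say nothing of binding.

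In the embryo all 6 genes stood above 20 CPM in every library. Neurod6 stood at 1717 and 1454 CPM at E13 and at 1870 and 1915 at E15, and by CPM, with no correction for length, it ranked 7 to 15 among 19936 tested genes. Neurod1 had 607 and 534 CPM at E13 and 643 and 628 at E15. Neurod2 had 390 and 293 at E13 and 382 and 415 at E15. For Neurod1 and Neurod6 each E15 value exceeded each E13 value, while Neurod2 overlapped between the stages. Bhlhe22 had 185 and 156 CPM at E13 and 199 and 189.6 at E15, the same order as Neurod1. The Nhlh genes ran the other way: Nhlh1 had 75.9 and 84.8 CPM at E13 and 20.6 and 28.1 at E15, and Nhlh2 had 166 and 195 at E13 and 120.5 and 114 at E15. Reads of the 6 genes were 152497 to 204633 per embryonic library, of which Neurod6 took 53.5% to 58.2%.

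**Figure D1:**
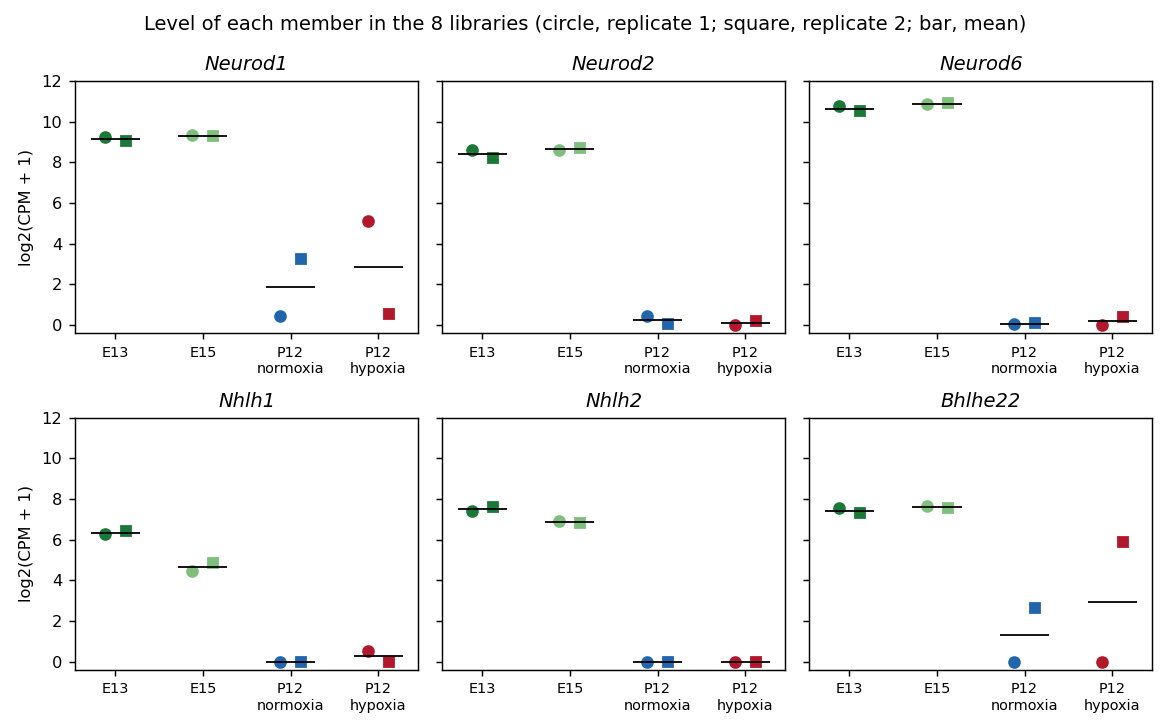
Level of each gene as log2(CPM + 1) in the 8 libraries, 1 panel per gene, with a circle for replicate 1, a square for replicate 2 and a bar for their mean. All 6 genes are high at E13 and E15; at P12 Neurod1 and Bhlhe22 are well above 0 in only 1 library of each group, and Nhlh2 is at 0 in all 4.

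Levels between genes were compared per kilobase of annotated exon (CPM per kb). Over the 4 embryonic libraries Neurod6 stood at 809 ± 96.7 CPM per kb (SD, n = 4), Neurod1 at 221 ± 17.7, Neurod2 at 118 ± 17.0 and Bhlhe22 at 54.5 ± 5.62. Nhlh2 followed at 27.5 ± 7.18 and Nhlh1 at 21.3 ± 13.3. The first 4 are separated by more than their spread. Nhlh2 and Nhlh1 were not separated at E13, with 33.4 ± 3.79 and 32.6 ± 2.54 CPM per kb (SD, n = 2), but were at E15, with 21.6 ± 0.908 and 9.89 ± 2.13. The Nhlh2 value rests on a length of 5417 bases summed over 3 transcripts, and would be higher with a shorter transcript. In bulk RNA, fewer cells of a type and less RNA per cell cannot be told apart, here and in every result below.

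E15 was compared with E13 to ask how these factors change as embryonic neurogenesis proceeds. Nhlh1, a factor of newborn neurons, stood at 24.4 ± 5.26 CPM at E15 against 80.4 ± 6.27 at E13 (SD, n = 2). Nhlh2 stood at 117 ± 4.92 CPM against 181 ± 20.5. The NeuroD genes and Bhlhe22 were 1.11 to 1.19 times their E13 mean. In edgeR's quasi-likelihood fit of all 8 libraries with Benjamini-Hochberg adjustment no member passed, and neither did any other gene: 0 of 19936 were called (percent called 0), and 690 had an unadjusted p under 0.05. In that fit the spread is estimated over all 8 libraries, those of P12 included. The log2 fold change of Nhlh1 was -1.72 (95% interval -5.59 to 2.14, edgeR adjusted p = 1).

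In the edgeR fit of the 4 embryonic libraries alone, Nhlh1 fell by 1.72 on the log2 scale with SE 0.19 (95% interval -2.24 to -1.21, adjusted p = 0.0494), and it was the only one of the 6 called. That fit called 229 of 18253 genes, or 1.25%, 90 higher and 139 lower. Nhlh2 had a log2 fold change of -0.63 with SE 0.12 (interval -0.95 to -0.31), which did not pass (edgeR adjusted p = 0.0883). Neurod6 had 0.26 (interval 0.02 to 0.49), Neurod1 0.16 (-0.06 to 0.37), Neurod2 0.23 (-0.18 to 0.63) and Bhlhe22 0.19 (-0.10 to 0.48), none of which passed. Nhlh1 also passed in limma-voom with sample weights on all 8 libraries (adjusted p = 0.00871) but not in DESeq2 on all 8. On the embryonic libraries alone it passed in DESeq2 (adjusted p = 3.21e-14) and in limma-voom (0.0304), fits chosen after the data were seen. It passed in 4 of 18 alternatives in all. Over 18 alternatives the adjusted p of Nhlh1 ran from 3.21e-14 to 1. Both groups were apart without overlap for 5 of the 6 genes, 3 higher and 2 lower at E15, where 23.6% of all tested genes were higher and 25.8% lower on the same terms. Red blood cell transcripts moved with this comparison: the 3 haemoglobin genes on the marker list summed to 1523 and 4944 CPM at E13 and to 15.7 and 67.9 at E15. The glutamatergic neuron markers summed to 1598 and 1450 CPM at E13 and to 996 and 884 at E15. The part of either in the Nhlh1 difference was not tested.

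**Figure D2:**
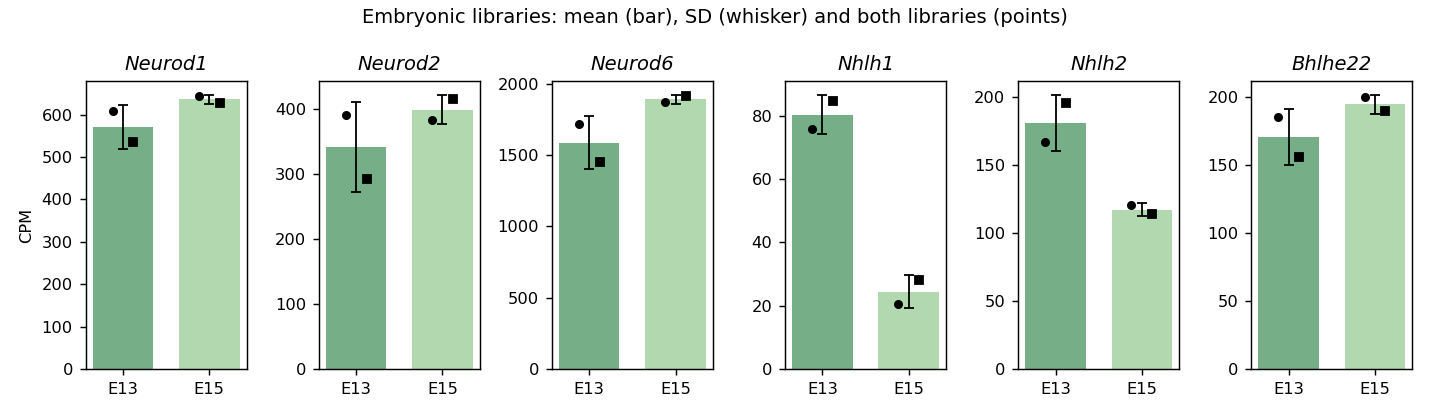
CPM of each gene in the embryonic libraries on a linear axis from 0, with the mean as a bar, the SD as a whisker and both libraries as points. Nhlh1 and Nhlh2 lie lower at E15 (24.4 and 117 CPM) than at E13 (80.4 and 181), and the other 4 genes differ little between the stages.

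Normoxic P12 cells were compared with the mean of E13 and E15 to describe the change from the embryo to the postnatal brain. The excitatory neuron factors were almost absent at P12 in normal air. Neurod6 had 1 and 2 counts, Neurod2 had 11 and 1 counts, and Nhlh1 and Nhlh2 had no count in either library. Neurod1 and Bhlhe22 were lower too but still present in 1 library, with 0.349 and 8.51 CPM for Neurod1 and 0 and 5.18 for Bhlhe22. In every member both normoxic libraries lay below all 4 embryonic ones, as they did for 32.1% of all tested genes, while 27.3% lay above without overlap.

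Neurod6 was lower than in the embryo by a ratio of 36155 (95% counting interval 12371 to 175319) on 3 counts in all. The counting interval leaves out the spread between libraries. In the fit its log2 fold change was -15.05 (95% interval -18.55 to -11.55, edgeR adjusted p = 0.00194). Neurod2 fell by 10.89 on the log2 scale (SE 1.49, edgeR adjusted p = 0.00711). Nhlh2 was at least 1544-fold lower and Nhlh1 at least 543-fold lower, bounds taken at 3 counts per library (edgeR adjusted p = 0.00192 and 0.0299). Neurod1 had a log2 fold change of -7.09 (SE 2.30), with edgeR adjusted p = 0.0854, and Bhlhe22 of -6.13 (SE 3.24), with 0.238, so neither passed. Called lower were 4 of the 6, beside a percent called of 5.68 in that direction over all tested genes (12.1 higher, 17.8 in either direction). Neurod2, Neurod6, Nhlh1 and Nhlh2 passed the low-count filter through their embryonic counts alone, so this count is a description. With limma-voom and sample weights the calls of Neurod2 and Neurod6 were lost (adjusted p = 0.0753 and 0.286). Calls of the remaining pair changed with the fit. Neurod1 passed in the edgeR fit of only the embryonic and normoxic libraries (adjusted p = 0.0236) and in DESeq2 (1.83e-05), over a range of 1.34e-10 to 0.211 in 18 alternatives. Bhlhe22 passed in DESeq2 (0.047), over a range of 0.000528 to 0.432. The Nhlh1 call was lost, with adjusted p = 0.0734 under a replicate block and 0.0736 to 0.121 without any single embryonic or normoxic library.

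Hypoxic P12 cells, set against the same embryonic libraries, had the same 4 genes near 0. Neurod6 had 0 and 8 counts, Neurod2 had 0 and 4, Nhlh1 had 13 and 0, and Nhlh2 had 0 in both libraries. Neurod1 stood at 34.0 and 0.444 CPM and Bhlhe22 at 0 and 57.2. Every hypoxic value again lay below every embryonic value of the same gene, which held for 36.3% of all tested genes, while 21.3% lay above without overlap.

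Neurod6 fell by 13.52 on the log2 scale (SE 1.34, edgeR adjusted p = 0.00192) and Neurod2 fell by 12.27 (SE 1.60, edgeR adjusted p = 0.00464). Nhlh2 was at least 1407-fold lower (edgeR adjusted p = 0.00166). Nhlh1 fell by 7.63 (SE 1.93, edgeR adjusted p = 0.0446), a call lost without any single embryonic library (0.137 to 0.149) and under a replicate block (0.0913). Neurod1, with a log2 fold change of -5.13 (SE 2.07), and Bhlhe22, with -2.67 (SE 2.65), did not pass (edgeR adjusted p = 0.12 and 0.485). Lower calls were 4 of the 6, beside a percent called of 12.9 in that direction (13.2 higher, 26.1 in either direction), and they too passed the filter through the embryo. Neurod1 passed without hypoxic replicate 1 (log2 fold change -10.39, edgeR adjusted p = 0.0376). With limma-voom and sample weights Neurod2, Neurod6 and Nhlh1 lost their calls (adjusted p = 0.189, 0.398 and 0.0543). This comparison and the normoxic one share their embryonic libraries, so their likeness is not independent evidence.

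**Figure D3:**
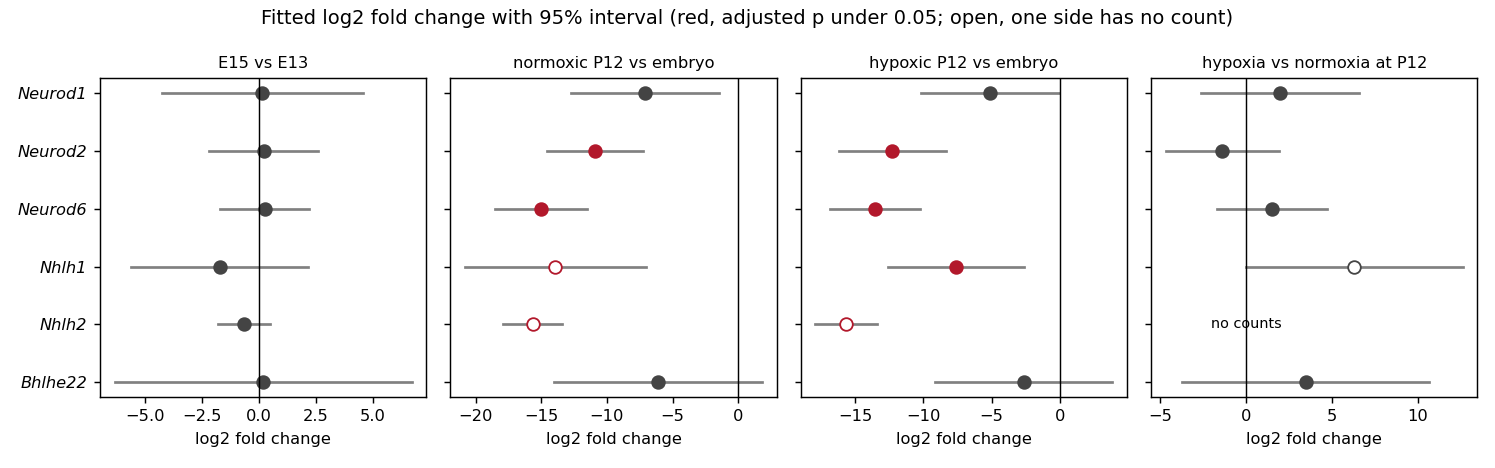
Fitted log2 fold change of each gene in the 4 comparisons with its 95% interval from the fit of all 8 libraries, outlined in red where the adjusted p is under 0.05 and open where 1 side has no count, so that the fitted value is no bound. Neurod2, Neurod6, Nhlh1 and Nhlh2 are red in both P12 comparisons with the embryo, and no gene is red for E15 against E13 or for hypoxia against normoxia.

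Hypoxia was compared with normoxia at P12, after the exposure had ended at P11, to ask how these factors stood following low oxygen. For Neurod1 and Bhlhe22 the hypoxic replicates differed from each other by more CPM than the group means did. Neurod1 counted 1010 and 12 reads in the hypoxic libraries and 11 and 261 in the normoxic ones. Bhlhe22 counted 0 and 1547 in hypoxia and 0 and 159 in normoxia. Thus Neurod1 was prominent in hypoxic replicate 1 and normoxic replicate 2, and Bhlhe22 in hypoxic replicate 2 and normoxic replicate 2. The hypoxic library with the most Neurod1 reads held no Bhlhe22 read, and Neurod1 made up 98.7% of its 1023 member reads. Bhlhe22 made up 98.5% of the 1571 member reads of the other hypoxic library. Normoxic replicate 1 held 23 reads of the 6 genes in all.

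None of the 6 was called between hypoxia and normoxia, where edgeR's quasi-likelihood test called 3.02% of 19936 genes, 0.196% higher and 2.82% lower, and in none of them were the groups free of overlap (13.1% of all tested genes were higher and 20.1% lower without overlap). The log2 fold change of Neurod1 was 1.96 (95% interval -2.64 to 6.55) with edgeR adjusted p = 0.699, and that of Bhlhe22 was 3.46 (-3.73 to 10.66) with 0.641. Neurod6 had 1.52 (-1.67 to 4.72) and Neurod2 had -1.38 (-4.67 to 1.91), both on a few reads. Nhlh1 had 13 reads in 1 hypoxic library, none in the other and none in normoxia. Its hypoxic mean was 2.27 times the limit of 3 counts in normoxia, a bound that covers counting error only. The fit gave Nhlh1 a 95% interval of -0.02 to 12.59 on the log2 scale (edgeR adjusted p = 0.276). Nhlh2 had no reads on either side, so no fold can be given. These intervals admit large changes in either direction for Neurod1, Neurod2, Neurod6 and Bhlhe22, and that of Nhlh1 includes no change. Without hypoxic replicate 1 the value for Neurod1 was -3.18. Without hypoxic replicate 2 that for Bhlhe22 was -9.78, with no hypoxic count left, so its size means little. Thus 1 library set the direction of each. Nhlh1 passed without hypoxic replicate 2 (edgeR adjusted p = 0.0254) and Neurod6 passed without hypoxic replicate 1 (0.0278), the latter resting on 8 reads against 3.

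**Figure D4:**
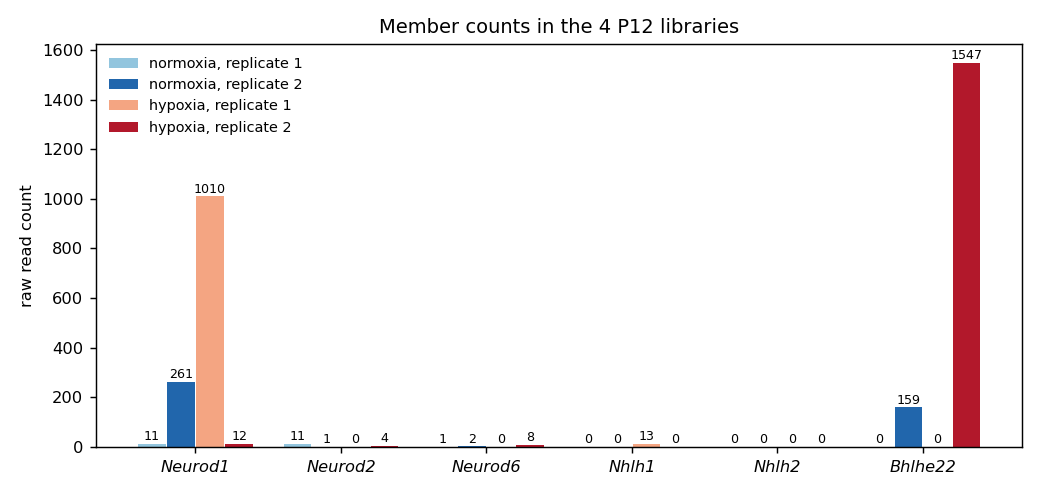
Raw read counts of the 6 genes in the 4 P12 libraries, on a linear axis from 0 with each count printed above its bar. Neurod1 is seen mainly in hypoxic replicate 1 (1010) and normoxic replicate 2 (261), Bhlhe22 mainly in hypoxic replicate 2 (1547), and the other 4 genes have 13 reads or fewer.

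Disagreement between P12 replicates was common to many genes. Of the genes with at least 5 CPM in a hypoxic library, 36.2% were 10-fold or more apart between the 2 hypoxic libraries, and 21.7% were so in normoxia, against 0.133% at E13 and 0.0543% at E15. Markers of neuron types also differed between P12 replicates. The glutamatergic neuron markers summed to 58.0 and 271 CPM in hypoxia and to 168 and 71.0 in normoxia, with Slc17a7 at 0 in all 4 libraries. Markers of the GABAergic interneuron lineage summed to 4.41 and 68.5 CPM in hypoxia and to 129 and 173 in normoxia. Cerebellar and dentate granule neurons also use Neurod1. Their 6 markers summed to 0.135 and 18.9 CPM in hypoxia and to 45.4 and 12.9 in normoxia. Zic1 made up most of the normoxic sums (45.2 and 12.7 CPM) and Cbln1 most of the sum in hypoxic replicate 2 (15.6). Gabra6 was at 0 in all 4 P12 libraries. The part of these cell types in the Neurod1 and Bhlhe22 reads was not tested.

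Genes known to act upstream formed a list of 6. Neurog2, which activates Neurod1, had 167 and 262 CPM at E13, 123 and 77.0 at E15, 0.603 and 44.8 in normoxia and 33.1 and 12.1 in hypoxia. It stood above 10 CPM in 3 of the 4 P12 libraries and was lowest in normoxic replicate 1. Eomes, the intermediate progenitor factor, likewise stayed measurable, with 12.9 to 77.7 CPM over the P12 libraries and 101 to 267 in the embryo. In normoxic P12 cells against the embryo 2 of the 6 were called higher and 2 lower, and the hypoxic comparison gave the same counts. Over all tested genes 12.1% were called higher and 5.68% lower in normoxia, and 13.2% and 12.9% in hypoxia. Pax6, a factor of cortical radial glia, rose by 2.53 on the log2 scale in normoxia (SE 0.52, edgeR adjusted p = 0.0269) and by 2.84 in hypoxia. Insm1, a zinc-finger factor of neurogenic divisions, fell in both, with log2 fold changes of -2.67 and -2.83. Neurog1, the other gene called lower in both, had 0.209 to 5.52 CPM in the embryo and no count at P12. Neurog2 and Eomes, which were not called, are given because of their role and were chosen after their values were seen. Between hypoxia and normoxia 0 of the 6 were called.

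Among the 3 E proteins, the partners of the bHLH factors, Tcf4 rose at P12 by 1.62 in normoxia (SE 0.32) and 1.74 in hypoxia, reaching 2146 to 4270 CPM. Tcf12 fell by 2.46 in normoxia (SE 0.45) but was not called in hypoxia (log2 fold change -1.07, edgeR adjusted p = 0.109), and the difference between the P12 groups did not pass either (1.39, edgeR adjusted p = 0.217). Tcf3 was not called in either group. Of 7 inhibitors of bHLH activity 4 were called higher and 1 lower in each P12 group against the embryo. The shares over all tested genes were 12.1% higher and 5.68% lower in normoxia, and 13.2% and 12.9% in hypoxia. Hes5 rose by 6.50 in normoxia (SE 0.52, edgeR adjusted p = 0.00105) and 6.22 in hypoxia, Id4 by 4.68 and 4.31, and Hes1 by 4.94 and 5.41. The fourth was Id3, and the gene called lower in both was Id2, with log2 fold changes of -2.94 and -2.72. Hes5 went from 3.68 to 6.65 CPM in the embryo to 242 to 695 at P12. The medians of the inhibitor list were 4.68 in normoxia and 4.31 in hypoxia, where all tested genes had medians of -0.04 and -0.43. No inhibitor was called between hypoxia and normoxia, nor between E15 and E13.

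Of 14 other bHLH genes 8 passed the filter. Neurod4, a NeuroD gene not among the 6, had 8.07 to 25.4 CPM in the embryo and 0 to 0.296 at P12. Its log2 fold changes were -6.95 in hypoxia (SE 1.93, edgeR adjusted p = 0.0462) and -8.11 in normoxia (SE 2.05, edgeR adjusted p = 0.0456). Olig1 and Olig2, of the oligodendrocyte lineage, took the opposite course: Olig1 had no count in the embryo and 33.7 to 161 CPM at P12. In this list 3 were called higher and 1 lower in normoxia against the embryo, and 2 and 1 in hypoxia. All tested genes had 12.1% called higher and 5.68% lower in normoxia, and 13.2% and 12.9% in hypoxia. Olig3, called higher in normoxia, had 157 and 128 counts at E13, 346 and 103 in normoxia and 0 at E15 and in hypoxia. Bhlhe23 did not pass the filter and is given after its values were seen. It had no count in the embryo, 3 and 357 in normoxia and 2 and 1 in hypoxia.

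The last list held 16 cofactor and early neuron genes. Against the embryo 6 were called lower and 1 higher in normoxia, and 8 and 1 in hypoxia. Shares over all tested genes were 5.68% lower and 12.1% higher in normoxia, and 12.9% and 13.2% in hypoxia. The gene called higher in both was Mapt, which encodes the tau protein. Prdm8, the partner of Bhlhe22 and named for that role after its values were seen, had 63.2 to 103 CPM in the embryo, 0 in both normoxic libraries, and 8.11 and 0.0370 in the hypoxic ones, the higher value in the library without Bhlhe22 reads. Rnd2, a small GTPase of migrating neurons, fell by 2.08 in normoxia (SE 0.23) and 2.01 in hypoxia, and Tubb3, a neuronal tubulin, fell by 3.61 in normoxia (SE 0.47). At P12 Rnd2 stood at 125 to 170 CPM and Tubb3 at 56.9 to 155. Between hypoxia and normoxia 2 of the 16 were called, Stmn2 and Bcl11b, both lower in hypoxia, beside 2.82% of all tested genes. Both calls were lost in the edgeR fit of the P12 libraries alone (adjusted p = 0.341 for each) and without any single embryonic library, when no gene at all was called. In the embryonic libraries alone 2 of the 16 were called lower at E15, Stmn2 with a log2 fold change of -2.23 (SE 0.16) and Tbr1 with -1.25 (SE 0.12), beside Nhlh1. That fit called 1.25% of all tested genes in either direction.

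**Figure D5:**
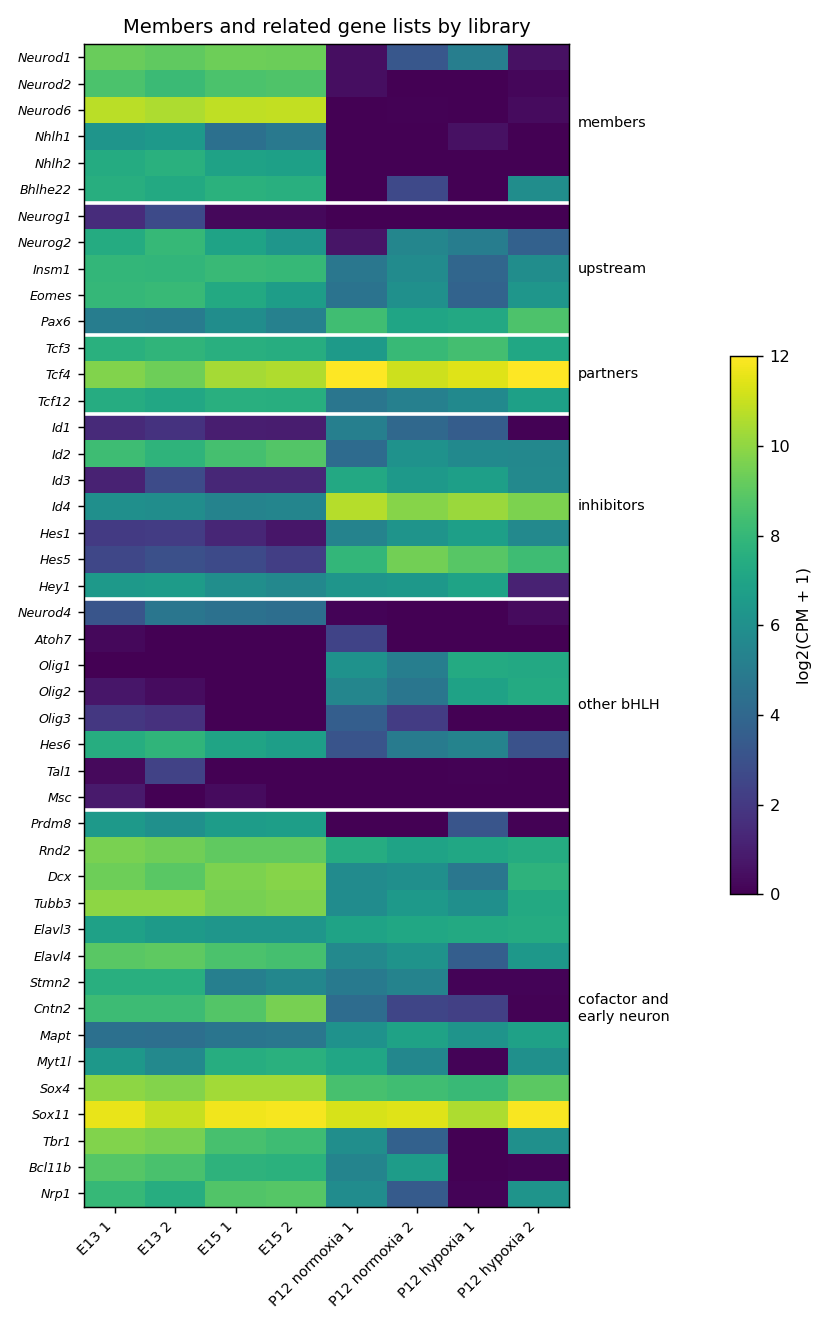
Heat map of log2(CPM + 1) for the 6 genes and genes of the related lists (rows) in the 8 libraries (columns), from 0 (dark) to 12 (yellow). Neurod2, Neurod6, Nhlh1 and Nhlh2 are dark in all P12 libraries, while Hes5 and Id4 are bright there and Rnd2 and Tubb3 remain visible.

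Over the 8 libraries the pattern of Neurod6 was most like that of Neurod2 among the members (Pearson r of log2(CPM + 1) = 0.999), and Nhlh2 followed Neurod6 with r = 0.996. The least alike were Bhlhe22 and Neurod1, at 0.698. All 6 genes were lower at P12 than in the embryo, and these values include that gap; both genes of a pair are measured in the same libraries. Among 11133 genes searched, those most like Neurod1 were Masp1, Nhsl1 and Maz (r = 0.999, 0.997 and 0.996). For Bhlhe22 they were Clvs1, Med27 and Osbpl5 (0.998, 0.997 and 0.996), and for Nhlh1 they were Bmf, Lhx9 and St18 (0.997, 0.996 and 0.995). By Spearman's rho, a correlation of ranks, these matches had 0.810 to 0.976 with Neurod1, 0.755 to 0.898 with Bhlhe22 and 0.834 to 0.962 with Nhlh1. Other genes stood higher by rho, so this order depends on the measure. The best matches of Neurod2, Neurod6 and Nhlh2 stood among 104, 108 and 87 genes with r above 0.99, so their order carries little. They were Cyb5r1, Zfp583 and Dhx34 for Neurod2, AA387200, mt-Co2 and Dhx34 for Neurod6, and Gsdmd, Dusp4 and Rbm41 for Nhlh2.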

How the data were processed

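The deposited tables hold whole-number read counts per gene, 1 table per library, with 55487 rows each, of which 1980 name no gene (0.205% to 0.266% of counts) and were left out. Tools in the submitters' processing notes are cutadapt, STAR and Subread, with the build GRCm38; their versions, the annotation, the strand setting and the treatment of reads with several matches are not given in the sources used here. Groups and replicate numbers come from the sample titles; the P12 tables carry other numbers in their own names, so replicates 1 and 2 at P12, and the replicate block, follow the titles.

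Counts were filtered with filterByExpr (minimum count 10, minimum total 15), which left 19936 genes, scaled by TMM and fitted with edgeR 4.0.16 (quasi-likelihood test, R 4.3.3) over the 4 groups of all 8 libraries, leaving 4 residual degrees of freedom. Benjamini-Hochberg adjustment of the p-values covered the whole table, and genes under 0.05 were called. The embryo is the mean of E13 and E15 with equal weight. Likeness of pattern is Pearson r of log2(CPM + 1) with a pseudocount of 1, among genes of at least 10 CPM in a group mean. Exon lengths come from GENCODE M21 and promoters from RefSeq. Named were all 6 members, up to 3 called genes of smallest p per list and comparison, and the 3 genes most like each member, with provisional gene models skipped; some genes that the rule names are not reported here. Alternatives used DESeq2 1.42.0 and limma 3.58.1, other scalings and filters, a replicate block, fits of only the compared groups and each library left out. Scripts were tested on simulated data. The members and lists were chosen with earlier results of these data known.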

Additional observations from a re-analysis of the deposited data

How the results depend on the processing

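Over the 4 comparisons, 361 of 404 alternative values of the 6 genes kept their direction and their side of the threshold, 22 newly passed, 17 no longer passed and 4 changed sign. Of the unchanged values, 102 of 108 in E15 against E13 and 74 of 80 in hypoxia against normoxia were genes that stayed uncalled. All alternatives reuse the same 8 libraries. The 4 changes of sign were all in hypoxia against normoxia: Neurod1 had -3.18 without hypoxic replicate 1, Neurod6 had -4.21 and Bhlhe22 had -9.78 without hypoxic replicate 2, and Neurod2 had 1.31 without normoxic replicate 1. Without those libraries Neurod1 had 12 counts in hypoxia against 11 and 261 in normoxia, and Neurod6 had 0 against 1 and 2. Bhlhe22 had 0 against 0 and 159, and Neurod2 had 0 and 4 in hypoxia against 1 in normoxia. Why the P12 replicates differ was not tested. In this comparison Nhlh2 gave no value, nor did Nhlh1 without hypoxic replicate 1, since neither had counts.

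Leaving out each library in turn gave log2 fold changes in hypoxia against normoxia of -3.18 to 5.61 for Neurod1, -6.18 to 1.31 for Neurod2, -4.21 to 2.65 for Neurod6, 6.19 to 7.34 for Nhlh1 and -9.78 to 13.35 for Bhlhe22. Against the embryo, normoxia gave -10.74 to -6.28 for Neurod1 and -14.00 to -13.71 for Nhlh1, and hypoxia gave -10.39 to -4.16 for Neurod1 and -14.00 to -6.67 for Nhlh1. Where 1 side had no count, the size of a fitted value means little. That holds for Nhlh1 in normoxia and in hypoxia against normoxia, and for its -14.00 in hypoxia. It also holds for the -9.78 and 13.35 of Bhlhe22, the -6.18 of Neurod2 and the -4.21 of Neurod6. Genes called numbered 0 to 3018 in hypoxia against normoxia, 928 to 5990 in normoxia against the embryo, 1562 to 6836 in hypoxia against the embryo and 0 each time in E15 against E13. A group left with 1 library was assumed to vary like the others.

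For libraries of equal replicate number, correlations of their deviations from the group means ran from -0.0444 to 0.0137 over 6 pairs of groups. Such values cannot settle whether equal numbers share a litter or a day, since the spread between P12 replicates is large. With the replicate block Nhlh1 no longer passed, with -14.07 in normoxia, a fit to no count, and -8.07 in hypoxia against the embryo. Calls numbered 1 in hypoxia against normoxia, 1705 in normoxia and 2868 in hypoxia against the embryo. The block changed no other call of the 6 genes.

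With edgeR on only the compared groups, Nhlh1 at E15 against E13 (-1.72) and Neurod1 in normoxia against the embryo (-7.19) passed, and calls numbered 229 for E15 against E13, 6731 for normoxia against the embryo and 0 for hypoxia against normoxia. Without a low-count filter 295 genes were called in hypoxia against normoxia. DESeq2 called 3981 genes in hypoxia against normoxia, 373 in E15 against E13, 7252 in normoxia and 9001 in hypoxia against the embryo, and newly passed were Neurod1 (-7.14) and Bhlhe22 (-6.19) in normoxia and Neurod1 (-5.02) in hypoxia. With limma-voom and sample weights calls numbered 0, 935 and 2390 in hypoxia against normoxia, E15 against E13 and hypoxia against the embryo. Newly passed were Nhlh1 (-1.73) and Nhlh2 (-0.63) at E15 and Neurod1 in normoxia (-8.44), while Neurod2 (-11.40) and Neurod6 (-14.77) in normoxia and Neurod2 (-12.89), Neurod6 (-14.70) and Nhlh1 (-8.73) in hypoxia no longer passed.

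Fits chosen after seeing the data used only the compared groups. DESeq2 then called 1363, 2288, 9524 and 9851 genes in hypoxia against normoxia, E15 against E13, normoxia and hypoxia against the embryo, and passed Nhlh1 (-1.72) and Nhlh2 (-0.63) at E15, Neurod1 (-7.09) and Bhlhe22 (-6.15) in normoxia and Neurod1 (-4.98) in hypoxia. Limma-voom called 0, 434 and 7876 genes in the first 3 of these and passed Nhlh1 (-1.73) at E15, Neurod1 (-8.40) and Bhlhe22 (-9.24) in normoxia and Neurod1 (-7.17) in hypoxia. By Spearman's rho 0 of the 18 genes of most similar pattern were the same. Groups of 2 libraries limit every test, and depth does not resolve levels under 3 counts, 0.0482 to 0.111 CPM.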
